A study of Homo sapiens with 6 samples.

Results

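The regions described here were the wide peaks labelled H3K4me3 of OCI-AML3 cells that had received a guide RNA against mutant NPM1 (sgNpm1A). They were selected on a measured value, the width of the deposited peak, as the peaks of 1000 bp or more on chromosomes 1 to 22 and X of GRCh38 (hg38). The rule took 7729 of 106629 sgNpm1A peaks, or 7.25%, and these peaks held 11.5 Mb, or 20.7% of the length under all of them. The median wide peak was 1288 bp, with quartiles of 1111 and 1601 bp, and the widest was 38752 bp. No rows of the list overlapped each other, so each wide peak is 1 deposited row.

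OCI-AML3 is a human cell line from acute myeloid leukemia (AML) in which NPM1 is mutated. Cells received either the control guide RNA (sgNeg) or sgNpm1A by transfection and were cultured for 3 days (72 h) per the labels, whereas the text of the study gives a longer time. Per the study the line also has mutations in DNMT3A and NRAS, which both cell groups share. The mutant NPM1 is the target of sgNpm1A, and the study reports a marked fall of its protein. Whether the sgNpm1A cells were a mixed pool or a clone was not given in the sources used here. Chromatin was precipitated with an antibody against H3K4me3 or H3K27Ac and its DNA was cut and tagged by Tn5 transposase, and each guide RNA and mark had 1 library with no replicate. Differences between the lists are therefore differences between 2 libraries, and no test of the guide RNA was possible.

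Trimethylation of lysine 4 of histone H3 (H3K4me3) is written by SET1 and MLL complexes and is concentrated on the nucleosomes that flank the starts of active genes, above all at CpG islands. Broad domains of the mark are known at genes that define a cell type. A peak caller reports a wide region wherever tags stay above its limit over a long stretch, whatever the source of the tags.

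The lists differed widely at gene starts. Any sgNpm1A peak lay within 1 kb of 7.78% of 19626 coding starts, and any sgNeg peak within 1 kb of 65.7%. Of 14 housekeeping genes, ACTB and GAPDH among them, 0 had a sgNpm1A peak there, which is close to the share over all coding starts, and 14 had a sgNeg peak, of which 8 were 1000 bp or more. The sgNpm1A list held a peak at the start of 0 of 8 myeloid markers, 0 of 4 B-lymphoid, 1 of 4 T-lymphoid (CD3D) and 0 of 4 erythroid markers, and of 2 of 8 myeloid differentiation genes (CSF1R and CEBPE). The sgNeg list held one at 6, 0, 1, 1 and 5 of them. With so few genes a list, and with 6 of 8 near the share over all coding starts, these counts check the label OCI-AML3 weakly in sgNeg and not at all in sgNpm1A. With a peak at 7.78% of coding starts, the sgNpm1A list did not show the concentration at gene starts described above for H3K4me3. Whether its regions carry the mark was not tested. Peak widths were also on different ranges. In sgNeg the narrowest peak had 110 bp and the median peak 192 bp, whereas in sgNpm1A they had 245 and 407 bp.

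Few wide peaks held the start of a coding gene, and 4 promoters that did are printed as examples. They are under the 10 widest peaks at a coding start and have an entry in the RefSeq promoter table of GRCh38.p14. Each runs 5′ to 3′ from 250 bases before to 50 bases after the start, with every CG dinucleotide in capitals. LRRC14B is at chr5:191245-191544 (plus strand) with 15 CG, SLC6A19 at chr5:1201345-1201644 (plus strand) with 21, IRX4 at chr5:1886896-1887195 (minus strand) with 47, and SAP25 at chr7:100573851-100574150 (minus strand) with 29.
LRRC14B: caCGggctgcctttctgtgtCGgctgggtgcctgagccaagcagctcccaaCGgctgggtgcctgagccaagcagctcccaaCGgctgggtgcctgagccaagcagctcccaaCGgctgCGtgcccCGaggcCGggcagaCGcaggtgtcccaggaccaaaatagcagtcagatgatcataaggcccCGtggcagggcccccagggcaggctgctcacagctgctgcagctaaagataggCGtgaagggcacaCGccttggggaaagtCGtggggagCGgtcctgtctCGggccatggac
SLC6A19: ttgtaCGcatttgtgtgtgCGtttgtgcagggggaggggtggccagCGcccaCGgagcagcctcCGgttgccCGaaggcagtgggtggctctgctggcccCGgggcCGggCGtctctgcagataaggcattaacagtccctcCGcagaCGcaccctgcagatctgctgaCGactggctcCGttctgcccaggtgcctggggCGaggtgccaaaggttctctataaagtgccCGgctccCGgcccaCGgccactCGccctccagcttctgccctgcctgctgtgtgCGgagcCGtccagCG
IRX4: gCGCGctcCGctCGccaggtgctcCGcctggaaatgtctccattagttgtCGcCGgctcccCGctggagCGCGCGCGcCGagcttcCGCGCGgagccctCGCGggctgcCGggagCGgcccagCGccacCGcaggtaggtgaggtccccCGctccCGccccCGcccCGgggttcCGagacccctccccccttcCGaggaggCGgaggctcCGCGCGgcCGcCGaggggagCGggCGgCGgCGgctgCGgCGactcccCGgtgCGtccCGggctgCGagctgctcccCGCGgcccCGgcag
SAP25: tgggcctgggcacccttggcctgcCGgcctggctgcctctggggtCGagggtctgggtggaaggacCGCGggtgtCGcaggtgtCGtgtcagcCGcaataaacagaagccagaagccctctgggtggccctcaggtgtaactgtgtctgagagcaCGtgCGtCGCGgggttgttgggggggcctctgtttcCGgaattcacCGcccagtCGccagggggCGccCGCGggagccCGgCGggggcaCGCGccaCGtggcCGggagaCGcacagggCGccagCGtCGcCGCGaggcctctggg

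SLC6A19 encodes a carrier of neutral amino acids in gut and kidney, IRX4 a homeobox factor of the heart ventricle, and SAP25 a partner of the SIN3A corepressor. The starts of LRRC14B and SLC6A19 lay inside a sgNeg peak as well, and those of IRX4 and SAP25 did not. Of the 15812 coding promoters in the table, which does not cover all chromosomes, 50 had their start inside a wide sgNpm1A peak. Their median content was 10 CG, with quartiles of 4 and 19, against 22 over all promoters and 29 over the 760 promoters whose start lay inside a wide sgNeg peak. At least 10 CG were found in 54.0% of the 50, in 73.0% of all and in 93.7% of the 760. The median GC content was 62.5%, 62.7% and 68.3% in the same order. All 4 promoters printed were above the median of the 50, and those of SLC6A19, IRX4 and SAP25 were above their upper quartile, so they are not typical of the set.

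The wide peaks were gathered on a few chromosome arms. Chromosome 8 held 1869 of them, chromosome 5 held 1824, chromosome 1 held 1480, chromosome 7 held 688 and chromosome 17 held 492. These 5 chromosomes had 82.2% of the wide sgNpm1A peaks, 58.8% of all sgNpm1A peaks and 59.5% of the wide sgNeg peaks, on 27% of the length. The other chromosomes held between 0 (X) and 156 (2). The X chromosome had 24 sgNpm1A peaks in all, or 0.154 per Mb. The sgNeg list was sparse there too, with 2.65 peaks per Mb, against 34.8 on chromosome 13, its next lowest.

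Chromosomes were split into arms at their longest stretch without a sgNeg peak, which is not an annotated centromere. The short arm of chromosome 5 had 1751 wide peaks, or 37.2 per Mb, and 5.86% of the arm lay under them. The next arms were 8q with 14.8 per Mb, 1q with 12.7, 8p with 9.09, 17q with 8.20 and 7q with 6.69. The highest value elsewhere was 2.54 per Mb on 19p. The partner arms were low, with 0.554 per Mb on 5q, 1.09 on 1p, 1.28 on 17p and 0.765 on 7p. The 6 leading arms together held 6070 wide peaks, or 78.5%, on 15.2% of the length, and they held 50.8% of all sgNpm1A peaks and 51.8% of the 6755 wide sgNeg peaks.

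**Figure D1:**
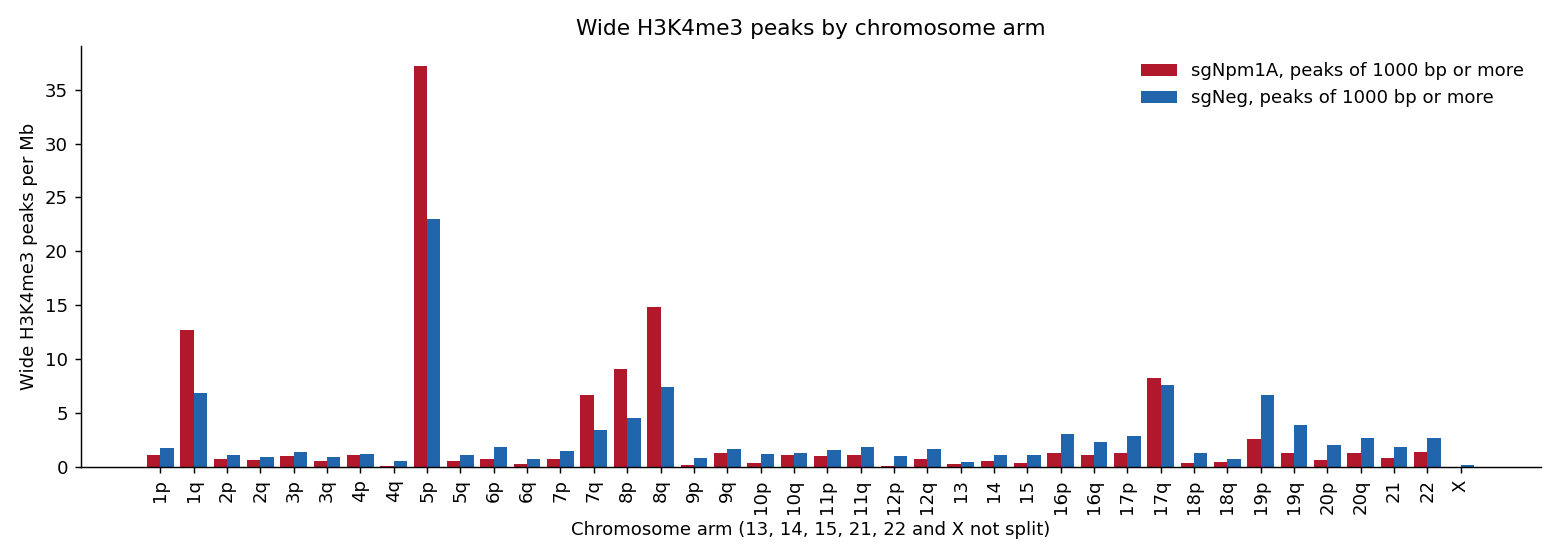
Wide H3K4me3 peaks per Mb (vertical axis) on each chromosome arm (horizontal axis) for sgNpm1A (red bars) and sgNeg (blue bars), 1 library each with no error bars. The sgNpm1A bars stand out on 5p (37.2 per Mb), 8q, 1q, 8p, 17q and 7q, and on these 6 arms they are higher than the sgNeg bars, while on 19p the sgNeg bar is higher (6.68 against 2.54).

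The sgNeg list was dense on the same arms. Over 40 arms or unsplit chromosomes, wide sgNpm1A peaks per Mb had a Spearman's rho of 0.949 and a Pearson's r of 0.922 with all sgNeg peaks per Mb. These are descriptions of 2 libraries of 1 cell line, and arms share that source. On 5p the sgNeg list had 575 peaks per Mb, against 70.8 on 5q. Within the sgNpm1A list the share of peaks that reached 1000 bp was also uneven, at 17.3% on 5p, 11% on 8q, 10.2% on 1q and 2.87% on 5q. The fold values of each list could be written as a pileup over 1 constant background, of 2.93 fragments in sgNpm1A and 3.81 in sgNeg, so no local or input level entered them. How many DNA copies of each arm the cells carried was not measured here, and its part in the density was not tested.

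Wide peaks lay close together. Of the 7729, 5981 (77.4%) were within 50 kb of another wide peak, and the median distance to the nearest was 8.88 kb. A share of 50% fell in 84 of 3043 bins of 1 Mb, which is 2.76% of the bins. No such values are given for the narrower or the sgNeg peaks, so this closeness is not shown to be particular to the wide peaks. The fullest bin was the second Mb of chromosome 5, with 164 wide peaks over 34.6% of its bases, and 12 of its 14 coding genes were touched. Next came 3 bins of chromosomes 8 and 5 with 138, 116 and 112 wide peaks, at LY6 family genes, at PTK2 and PTP4A3, and at IRX2. Wide sgNeg peaks in these bins numbered 158, 78, 98 and 67 in the same order.

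Within the second Mb of chromosome 5 wide peaks covered much of whole gene bodies. They covered 74.0% of the 23.5 kb record of SLC6A19 and 55.9% of that of SLC6A3, which encodes the dopamine transporter. NKD2, a Wnt pathway inhibitor, was covered to 52.2%, SLC6A18 to 51.1%, SLC12A7, a potassium and chloride cotransporter, to 50.6%, and TERT, the catalytic subunit of telomerase, to 42.8%. Peaks of sgNeg covered 83.1% of SLC6A19, 69.0% of SLC6A3, 65.8% of SLC12A7 and 59.9% of TERT. These shares are among the 10 largest over coding records of 20 kb or more, as are those of CLPTM1L in the same bin and of SCRIB and PTP4A3 on 8q.

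By number of wide peaks the leading genes were long. CTNND2, a delta catenin of neurons, held 58 wide peaks in a record of 933 kb, PTPRN2 on 7q, a phosphatase-like protein of secretory granules, held 49, and TRAPPC9 on 8q, of a vesicle tethering complex, held 46. In all, 1857 of 19821 coding genes (9.37%) had a wide peak over their record, 169 had 5 or more and 60 had 10 or more. Of the wide peaks, 4184 (54.1%) overlapped a coding gene record, against 51.1% of the narrower sgNpm1A peaks and 77.1% of the wide sgNeg peaks. A further 841 (10.9%) touched a lncRNA record and no coding gene, and 2596 (33.6%) touched no gene record of any kind.

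Coding gene starts were rare under the wide sgNpm1A peaks. A coding start lay within 1 kb of 201 of the 7729, or 2.60% (95% Wilson interval 2.27 to 2.98, which covers counting error only). Over all sgNpm1A peaks this share was 1.59%, and over the 98900 narrower peaks it was 1.51% (1.43 to 1.58). In the wide sgNeg peaks it was 50.8% (49.6 to 52.0), or 3431 of 6755. A window of 1 kb around a wider region takes in more bases than around a narrow one. The peak itself held the start in 80 cases. Starts of lncRNA genes were within 1 kb of 161 wide peaks, or 2.08%, against 1.32% of the narrower peaks.

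In the sgNpm1A list the share near a coding start rose with width, apart from the class of 2000 to 2999 bp, but stayed low. It was 1.25% (1.11 to 1.40) for peaks under 300 bp, 2.24% for 1000 to 1249 bp, 2.47% for 2000 to 2999 bp and 5.80% (3.42 to 9.68) for the 224 peaks of 3000 bp or more. In the sgNeg list it went from 2.31% under 300 bp to 45.9% at 1000 to 1249 bp and 57.9% at 2000 to 2999 bp. The intervals of the lists did not overlap in any width class. They treat peaks as independent, which peaks lying close together are not, and cover no spread between libraries, so this is no test.

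**Figure D2:**
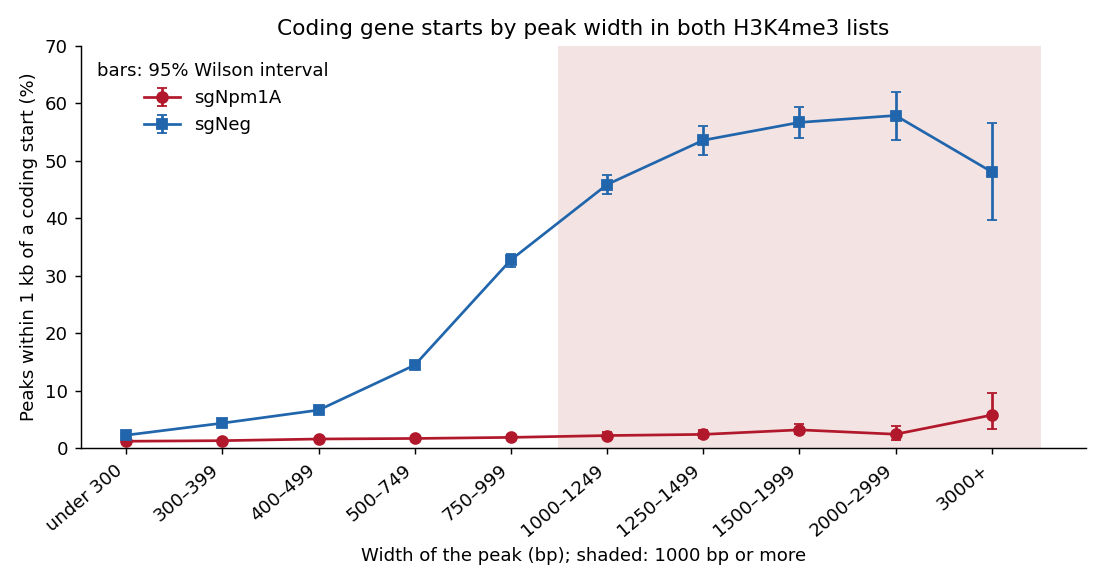
Percent of H3K4me3 peaks within 1 kb of a coding gene start (vertical axis) by width of the peak in bp (horizontal axis), for sgNpm1A (red) and sgNeg (blue), with bars for 95% Wilson intervals over peaks. The sgNeg line climbs to 57.9% at 2000 to 2999 bp, while the sgNpm1A line stays at or under 3.23% up to that width and reaches 5.80% in the widest class.

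The lists parted most away from the 6 dense arms. There, 2527 of 3254 wide sgNeg peaks (77.7%) were within 1 kb of a coding start, against 56 of 1659 wide sgNpm1A peaks (3.38%, 2.61 to 4.36). On the 6 arms the shares were 25.8% and 2.39%. These arms were picked for their wide sgNpm1A peaks, so the split is a description.

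Seen from the genes, 191 of 19626 coding starts (0.973%) were within 1 kb of a wide sgNpm1A peak and 3824 (19.5%) within 1 kb of a wide sgNeg peak. Any sgNeg peak was near 12894 starts and any sgNpm1A peak near 1527. None of 18 myeloid leukemia genes, HOXA9, MEIS1, MYC, MYB and SPI1 among them, had a wide sgNpm1A peak at its start, whereas 14 had a wide sgNeg peak there. The exception within a gene body was RXRA, a retinoid receptor, with 2 wide sgNpm1A peaks in its record. These were chr9:134350186-134351428 with a fold of 4.07 and chr9:134389370-134390378 with a fold of 3.56, both away from the start. Over whole records the counts were 1 of 18 for these genes, 0 of 14 for housekeeping genes and 0 of 8 for myeloid differentiation genes, against 9.37% of all coding genes, and lists this short do not separate 0 from that share.

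The widest peaks at a coding start had folds of 5.60 to 7.12. They were picked for their width, and the median fold over all 224 sgNpm1A peaks of 3000 bp or more was 5.85. In sgNeg peaks of 3000 bp or more it was 9.57, scaled by that library's own background. SLC6A3 had a peak of 7869 bp at chr5:1442725-1450593 with a fold of 6.87 (pileup of 26 fragments), and the sgNeg peaks under it reached 6.24. The start of GPT, an alanine transaminase, was within 1 kb of a peak of 7087 bp at chr8:144495960-144503046 with a fold of 6.10. GPR20, an orphan receptor, had peaks of 6113 and 3852 bp with folds of 5.85 and 6.36. Others were at IRX4 (4804 bp), VSIG8 (3819 bp), LRRC14B (3525 bp), SAP25 (3465 bp) and SLC6A19 (3419 bp). Each of these 9 peaks covered between 2 and 10 sgNeg peaks. None of the 8 genes is on the lists of myeloid or housekeeping genes.

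Genes of multicopy families seldom had a wide peak, as was so of coding genes at their starts. A wide sgNpm1A peak was within 1 kb of 10 of 1234 starts in such families (0.81%), against 0.973% of coding starts. Record shares also depend on gene length. Of 1305 genes in such families, 17 (1.30%) had a wide peak over the record, against 9.37% of coding genes and 0.627% of 16269 pseudogenes. Olfactory receptor genes or pseudogenes made up 869 of the 1305, and 1.5% of them had a wide peak, near the share of the whole list. Of the 17, 13 were of this kind, most of them on 1q and 7q. The highest was at OR6V1, at chr7:143052326-143053647, with a fold of 6.87, and its sgNeg peaks reached 4.78. The others were NBPF13P, DUX4L51, DEFB135 and POTEA. Of 2351 ribosomal and small nuclear RNA genes, 4 were under a wide peak, all of them 5S ribosomal pseudogenes, with folds from 3.82 to 6.61.

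Wide peaks covered 27 of 1558 microRNA hairpins (1.73%) and sgNeg peaks covered 226 (14.5%). None of the 27 lay on the chromosome with most wide peaks. The hairpins used, like the promoter table, may thus not cover all chromosomes, and the shares hold for these hairpins only. No share for regions of like length was computed, so 1.73% is not shown to be high or low. The mature sequences of 5 that lie under wide peaks are given because they mark an address inside such a peak, with the seed (bases 2 to 8) in capitals. miR-12136 lies in the peak of the highest fold of all, at a block of mitochondrial pseudogenes, miR-25 and miR-106b share 1 peak at chr7:100093211-100094269 (fold 4.58), and miR-182 and miR-96 lie under neighbouring peaks with folds of 4.83 and 4.07. No 2 of the 5 had the same seed.
hsa-miR-12136: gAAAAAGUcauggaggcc
hsa-miR-25-3p: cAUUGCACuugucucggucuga
hsa-miR-106b-5p: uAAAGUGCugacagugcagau
hsa-miR-182-5p: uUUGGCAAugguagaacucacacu
hsa-miR-96-5p: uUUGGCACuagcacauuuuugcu

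Mitochondrial pseudogenes are copies of mitochondrial DNA in the nuclear genome, and reads from the organelle can align to them. They lay under only 4 wide peaks, or 0.0518%, against 0.0253% of all sgNpm1A peaks, but 3 of the 4 had the highest folds among wide peaks. The first, chr1:629088-634920, was 5833 bp wide and spanned MTND1P23, MTND2P28, MTCO1P12, MTCO2P12, MTATP8P1, MTATP6P1 and MTCO3P12. Its fold was 197, a pileup of 773 fragments. In sgNeg the same block was split into 4 peaks with folds of 42.0, 36.0, 24.1 and 40.4, and the highest pileup was 201.

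The next pair lay side by side within the record of PCBD2, a pterin dehydratase gene. The peak at chr5:134924125-134925992 had a fold of 76.6 and held MTND6P4 and MTND5P11, and its sgNeg peaks reached 21.6. The peak at chr5:134926440-134928404 had a fold of 66.6 and held MTND4P12, MTND4LP30 and MTND3P25, and its sgNeg peaks reached 24.5. At these 3 peaks the sgNpm1A fold was over 2 times that of sgNeg, which was so for 6 of the 7437 wide peaks with a sgNeg peak. The opposite, a sgNeg fold over 2 times that of sgNpm1A, was found at 45.

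The fourth, chr5:5396697-5397769 at MTCO1P31, had a fold of 4.58, like an ordinary wide peak, and 3.33 in sgNeg. Of 465 mitochondrial pseudogene records, 13 lay under a wide sgNpm1A peak, 39 under any sgNpm1A peak and 65 under any sgNeg peak. The 13 are 2.8%, against 0.627% of all pseudogenes. All of them but MTCO1P31 lay in the chromosome 1 block or in PCBD2, so they are not separate cases. Any sgNpm1A peak was within 1 kb of 12.9% of their starts and of 6.64% of all pseudogene starts. For any sgNeg peak these shares were 22.7% and 18.9%. The other 23 sgNpm1A peaks at such records were narrower and had folds from 2.80 to 4.83. The H3K27Ac lists are on GRCh37. Their samples are labelled OCI-AML3, but the names of the lists carry a tag that resembles OCI-AML2, another AML line of the study, while the H3K4me3 names do not, so which line they hold is not settled. They had peaks of 5833 bp (sgNeg) and 5828 bp (sgNpm1A) over the same chromosome 1 block, with mean folds of 14.9 and 15.5. At the chromosome 5 block of MTND5P11 they had 10.6 and 9.53. In H3K27Ac the sgNpm1A value was thus close to that of sgNeg at the chromosome 1 block and below it at the other. The part of reads from mitochondrial DNA in these peaks was not tested.

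**Figure D3:**
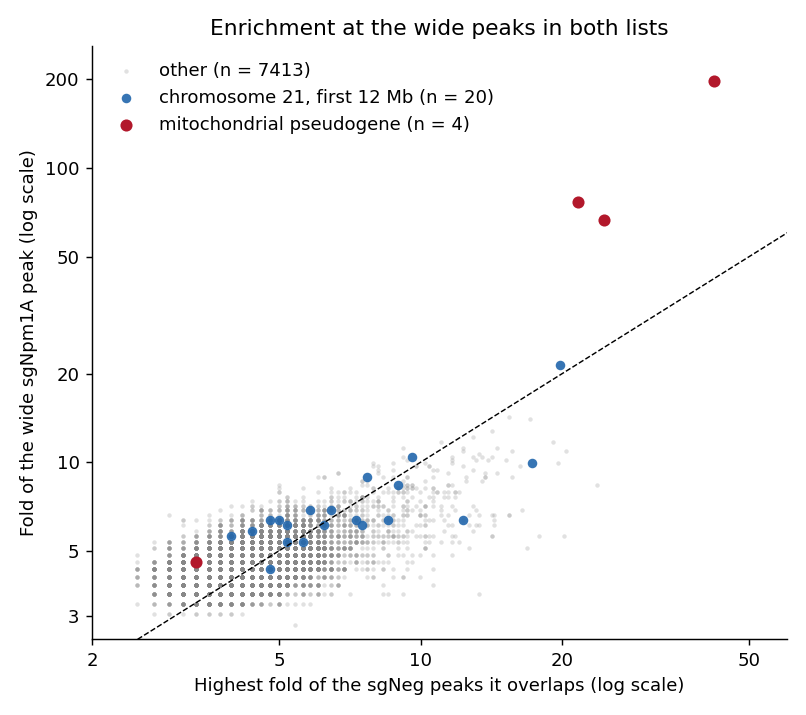
Fold of each wide sgNpm1A peak (vertical axis, log scale) against the highest fold of the sgNeg peaks it overlaps (horizontal axis, log scale), with 1 point per wide peak that overlaps a sgNeg peak and a dashed line at equality. Grey points cluster on the line, the blue points of the first 12 Mb of chromosome 21 lie among or along them up to a fold of 21.4, and 3 of the 4 red points at mitochondrial pseudogenes stand far above it at 66.6 to 197.

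The 2 widest peaks of the list were both on chromosome 21, in the first 12 Mb, which hold its short arm. They were chr21:10699832-10738583, of 38752 bp with a fold of 8.39, and chr21:7929466-7958321, of 28856 bp with a fold of 10.4. In sgNeg the same stretches held 13 and 10 separate peaks over 93.8% and 94.7% of the bases, with highest folds of 8.94 and 9.57. Neither touched a gene record.

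Of the 40 wide peaks on chromosome 21, 20 lay in these first 12 Mb, and 18 of the 20 touched no gene record. Their folds ranged from 4.32 to 21.4, all 20 overlapped a sgNeg peak, and sgNeg peaks covered 86.8% of their 125 kb. The 11 of them beyond 10 Mb held 72.2 kb. The peak of the highest fold off the mitochondrial pseudogenes was also here, chr21:9246135-9249120, with a fold of 21.4, against 19.8 in sgNeg. The widest member ended 72.3 kb before the longest stretch between 2 sgNeg peaks on this chromosome, chr21:10810925-14055521. The copies of repeated sequence in these stretches were not tested.

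Near the ends of chromosomes wide peaks were more frequent than over the whole list. Within 2 Mb of a chromosome end lay 883 (11.4%, 10.7 to 12.2), and within 2 Mb of the longest stretch without a sgNeg peak, used in place of the centromere, lay 126 (1.63%, 1.37 to 1.94). Either held for 1009 (13.1%), against 7.76% of all sgNpm1A peaks and 14.6% of the wide sgNeg peaks. The same windows make up 2.88% and 2.87% of the length outside such stretches. On chromosomes 13, 14, 15, 21 and 22 the stretch used began at base 1. On chromosome 21 it ended at base 6070381, so the widest member counted as 4630 kb away from it.

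Of the 883 at an end, 267 were in the first 2 Mb of chromosome 5 and 181 in the last 2 Mb of chromosome 8, where they covered 26.8% and 18.1% of the bases. Wide sgNeg peaks numbered 250 and 186 there. No other end had more than 63 wide sgNpm1A peaks (the last 2 Mb of chromosome 7). Most other ends held few: the first 2 Mb of chromosomes 3, 9 and 12 had 0. Of the 126 near the peak-free stretch, 75 were on chromosome 8. The ends with most wide peaks were thus on the dense arms 5p, 8q and 7q.

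Nearly all wide sgNpm1A peaks met a sgNeg peak. At least 1 bp was shared by 7437 (96.2%, 95.8 to 96.6), against 58.5% of the narrower peaks and 61.2% of all sgNpm1A peaks. A wider region meets a peak more easily, and the sgNeg list had 353578 peaks, so stricter measures are given as well. The summit lay inside a sgNeg peak for 66.5% of the wide and 35.4% of the narrower peaks, and sgNeg peaks covered 57.0% and 33.6% of their bases.

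A wide peak usually stood over more than 1 sgNeg peak. Of the 7729, 2380 met 1 sgNeg peak, 3300 met 2, 1309 met 3, 321 met 4, 89 met 5 and 38 met 6 or more. The sgNeg list had more peaks and narrower ones (median 192 against 407 bp), so 1 wide region can easily meet several. No such counts are given for the narrower sgNpm1A peaks. A sgNeg peak that was itself 1000 bp or wider was met by 1664 (21.5%). In the other direction, 26.0% of the 6755 wide sgNeg peaks met a wide sgNpm1A peak and 43.9% met any. Away from the 6 dense arms only 12.4% of wide sgNeg peaks met any sgNpm1A peak, against 73.1% on those arms. For the wide sgNpm1A peaks the shares that met a sgNeg peak were 89.1% away from those arms and 98.2% on them, and for the narrower peaks they were 44.4% and 73.4%.

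**Figure D4:**
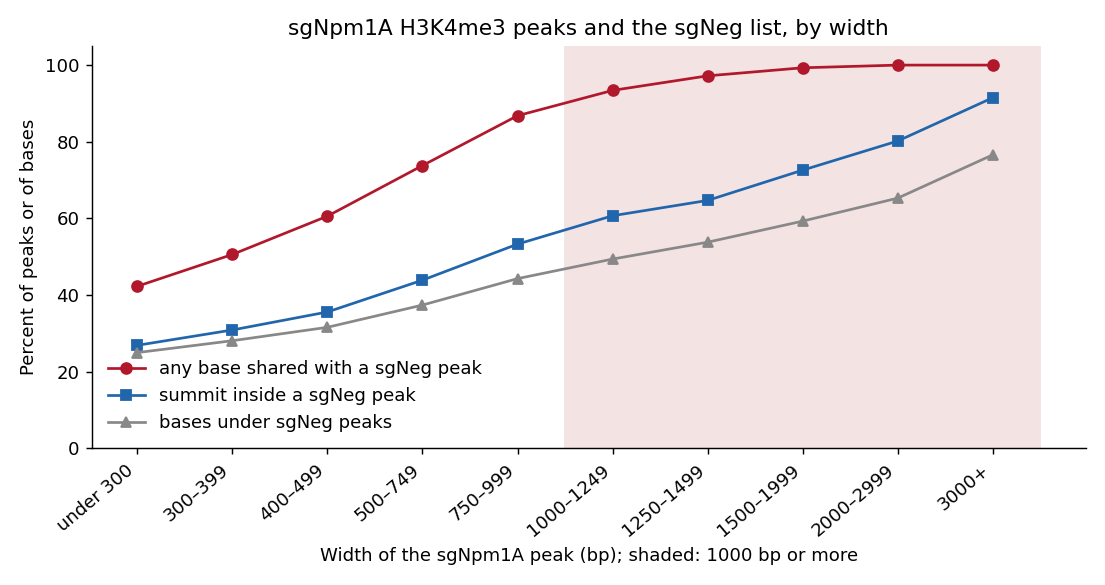
Percent of sgNpm1A peaks that share a base with a sgNeg peak (red), percent with the summit inside one (blue) and percent of bases under sgNeg peaks (grey), by width of the sgNpm1A peak in bp, with the wide peaks shaded. All 3 lines rise over the whole range, from 42.3%, 26.9% and 25% under 300 bp to 100%, 91.5% and 76.6% at 3000 bp or more, with no step at the limit of 1000 bp.

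The wide peaks were modest in enrichment. Their median fold was 4.58 (quartiles 4.07 and 5.09), against 3.56 in the narrower sgNpm1A peaks and 7.07 in the wide sgNeg peaks. A fold of 4.58 is a pileup of 17 fragments. The q-value was under 1e-05 in 56.0% of the wide peaks, 10.6% of the narrower and 97.7% of the wide sgNeg peaks. Where a wide peak met sgNeg peaks, the highest of these had a median fold of 4.37, and the median ratio of sgNpm1A to sgNeg was 1.04 (quartiles 0.901 and 1.17). The sgNpm1A value was higher in 57.7%. Narrower sgNpm1A peaks that met a sgNeg peak were close to this, with a median ratio of 1.02 and 53.8% higher. The fold values are scaled by each library's own background, so this gives no difference in the mark. Only 28 wide peaks had a fold over 10, and 24 of these had over 10 in sgNeg too.

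After the mitochondrial pseudogenes and chromosome 21, the highest folds were at SLC6A19 (14.2 at chr5:1220534-1222960 and 12.2 at chr5:1208575-1212986), at chr20:31068106-31069164 (14) and at chr22:11931010-11932542 (12.7). In sgNeg these 4 reached 15.4, 12.9, 17.1 and 14.1. The last 2 of the 10 highest were chr5:4144269-4145590 in LINC02063 and chr5:6828926-6831967, both with a fold of 11.7, and sgNeg had 11 and 19.1 there. The sgNeg peaks were as high or higher at all but 1 of these 6.

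Among the 10 widest, besides those named, were chr8:107583540-107592437 (8898 bp, fold 7.38), chr8:82370590-82379224 (8635 bp, fold 7.89), chr8:107573074-107581493 (8420 bp, fold 6.61), chr21:10683095-10691319 (8225 bp, fold 6.87) and chr7:99581882-99589916 (8035 bp, fold 8.39). None of these 5 touched a gene record. The chromosome 7 peak met a single sgNeg peak of 8052 bp, the widest of that list, which covered 99.4% of it. The peak of 8014 bp at chr5:1051743-1059756 in SLC12A7 had a fold of 8.14 and met 3 sgNeg peaks over 96.5% of its bases.

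No sgNeg peak was met by 292 wide peaks (3.78%), and these were weak. The highest fold among them was 5.60, a pileup of 21 fragments, at chr19:8592044-8593078 in ADAMTS10, a metalloprotease gene. The next were 5.34 at chr10:3123505-3124759 in PFKP, the platelet phosphofructokinase, and at chr19:20886627-20887664 in LOC100418989, with 2 others of the same fold outside gene records. Of the rest of the 10 highest, 1 lay in RUNDC3A and 1 in the immunoglobulin kappa locus IGK, each with a fold of 5.09. The widest of the 10 was 1588 bp. None lay on 5p or 1q.

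Coding genes with a wide peak were compared with other coding genes by symbol, since the H3K27Ac lists are on GRCh37, where 19047 of 19821 genes (96.1%) were found. The doubt about the cell line of the H3K27Ac lists applies to these values too. H3K27Ac peaks of sgNeg covered a median of 30.4% of the 1822 records with a wide peak and 8.18% of the 17225 without. In sgNpm1A the medians were 30.0% and 4.59%. Genes with a wide peak were longer (median 47.0 and 23.8 kb). Within the 6 dense arms the sgNpm1A medians were 39.4% and 13.2%, and elsewhere they were 23.7% and 3.87%, so the order was the same in both. In each of these groups sgNeg H3K4me3 peaks also covered more of the genes with a wide peak, with medians of 24.0% and 7.82% on the 6 arms and of 9.75% and 2.85% elsewhere.

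The GC content of the gene record went with wide peaks as well. On arms outside the 6, a wide peak lay over 0.723% (0.482 to 1.08) of coding genes in the lowest quintile of GC and 12.3% (11.2 to 13.5) in the highest. On the 6 arms the shares were 23.6% (20.4 to 27.1) and 39.4% (35.7 to 43.3). By length, wide peaks covered 0.496% of the lowest and 12.5% of the highest quintile on the 6 arms, and 0.00794% and 1.31% elsewhere. Peaks of sgNeg rose over the same quintiles, from 5.79% to 32.5% and from 0.927% to 12.7%. The part of GC content in the calling of wide peaks was not tested.

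**Figure D5:**
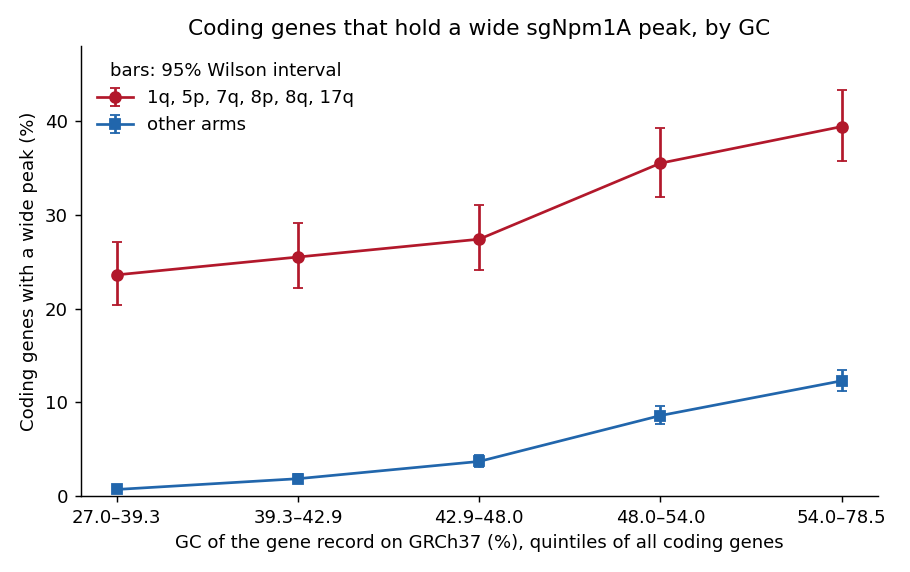
Percent of coding genes with a wide sgNpm1A peak over their record (vertical axis) by quintile of the GC content of the record on GRCh37 (horizontal axis), for the arms 1q, 5p, 7q, 8p, 8q and 17q (red) and for all other arms (blue), with bars for 95% Wilson intervals over genes. The share rises with GC in both, from 23.6% to 39.4% and from 0.723% to 12.3%.

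The limit of 1000 bp fell on a continuous range of widths, with 968 peaks of 1000 to 1049 bp and 1086 of 950 to 999 bp. The first peaks by position of exactly 1000 bp were at CD55, at PLXNA2 and at chr1:228001223-228002222, with folds of 3.56, 3.56 and 4.07. The first of 999 bp were at PRR9, at chr1:181810171-181811169 and at chr1:223080154-223081152, with folds of 3.56, 4.58 and 4.32. All 6 met 2 sgNeg peaks.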

How the data were processed

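The 6 samples of OCI-AML3 cells were 1 library per guide RNA and antibody, and 4 of them had a peak list. The 2 inputs were not analysed here. The authors called peaks in each library, and the deposited H3K4me3 rows give a fold enrichment ratio at the summit with its −log10 p-value and −log10 q-value. The submitters' processing notes name bcl2fastq 2.17, Trimmomatic 0.33, Bowtie 1.1.2, MACS2 2.1.0 and deepTools. Read depth was not given in the sources used here, so it is unknown. The labels name hg38 alone, which the H3K4me3 coordinates fit, whereas the H3K27Ac coordinates are those of GRCh37. No coordinate was converted, and the marks were joined by gene symbol.

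Analyses ran in Python 3.11.15 (pandas 2.3.3; numpy 2.4.6; scipy 1.17.1), and interval counts were tested on simulated data and against bedtools 2.31.1. Rows sharing 1 bp were to be merged, and 12 rows off the chromosomes used were dropped. An overlap was 1 bp or more. Gene records came from RefSeq (GRCh38.p14), where 679 records on alternate scaffolds were dropped. Starts came from the promoter table for 15812 coding genes and otherwise from the record's edge, with the strand from GENCODE, and 19626 of 19821 coding genes had one. Named regions were the 10 widest, the 10 of highest fold, those at listed genes or mitochondrial pseudogenes, the 10 widest at a coding start, the 10 highest with no sgNeg overlap, and 3 on either side of the limit. The chromosome 21 group, the 6 arms, the miRNAs and the gene bodies were chosen after their values were seen. Members and lists were chosen with earlier results of these data known. Some named regions are not reported here. No test was run, since each group had 1 library.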

Additional observations from a re-analysis of the deposited data

How the results depend on the processing

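Each result was recomputed under the alternatives, and 35 of 56 values moved beyond counting error, or beyond 1.5 times for a count. The 56 include 2 settings of row merging that left the list as it was, so the unmoved values say little about stability. Other settings, such as a wider window, change a value by definition. For the share of bases the limit was a Wilson interval over 7729 peaks, which is not the counting error of that share. Width limits of 800, 1500 and 2000 bp gave 13667, 2399 and 912 wide peaks, of which 92.6%, 99.6% and 100% met a sgNeg peak, with 53.2%, 64.4% and 69.4% of their bases under sgNeg peaks. Their median folds were 4.32, 5.09 and 5.34, and 11.5%, 16.8% and 22.2% were near a chromosome end or peak-free stretch. A coding start was within 1 kb of 3.25% and 3.29% at 1500 and 2000 bp. With a q-value under 1e-05, 4330 wide peaks were left, 98.7% met a sgNeg peak, 65.0% of bases were covered, 15.7% were near an end or stretch, and the median fold was 5.09. Neither leaving rows unmerged nor merging rows within 100 bp changed any value.

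The overlap with sgNeg depended on its definition. It was 58.3% when at least 50% of the wide peak had to be covered, 66.5% at the summit, and 72.0% with sgNeg peaks of a q-value under 1e-05, which covered 42.4% of bases. A coding start was within 5 kb of 9.65% and inside 1.04% of wide peaks. A mitochondrial pseudogene was within 5 kb of 0.142%. An end or stretch was within 1 Mb of 5.37% and within 5 Mb of 28.1%. Outside the 6 dense arms, an alternative chosen after seeing the data, 89.1% met a sgNeg peak, 42.6% of bases were covered, 3.38% were at a coding start and the median fold was 4.32. Restricting the stand-in for the centromere to stretches between sgNeg peaks, also chosen after seeing the data, gave 13.2%.

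No paired analysis was possible because each group had 1 library. Replicates could not be left out for the same reason, so no value here carries an error between samples. Unknown depth, the different ranges of peak width and the few coding starts under sgNpm1A peaks limit all comparisons with sgNeg.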
